A study of Homo sapiens with 6 samples.

Results

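The gene-rich short arm of human chromosome 19 was examined for RNA sites of DHX9 in HEK293 cells, an established line derived from embryonic kidney. Its sites were taken as every peak region whose midpoint lies on chromosome 19 (assembly hg19) between 0 and 9.0 Mb or between 12.8 and 19.8 Mb, apart from the stretch from 3530 to 3580 kb. This rule gave 990 of the 28449 peaks of the study: 775 of 21618 in the list of the antibody labelled DHX9-Rb and 215 of 6831 in the list of the antibody labelled DHX9-mAb. The assay was FLASH, in which ultraviolet light fixes a protein to RNA in contact with it, an antibody captures the protein, and the bound RNA fragments are sequenced. No treatment is labelled, all groups are HEK293 cells, and the 3 groups differ in the antibody: DHX9-mAb, DHX9-Rb and the control IgG-Rb, each with 2 biological replicates. Each DHX9 list stands for both of its replicates together, and no values of the IgG-Rb libraries were analysed here; whether they served as the control of the peak calls is not given in the labels or files. A peak therefore has no replicate error, no background level and an unknown read depth, and its only values are its position, its width, its strand and whether the other antibody also found it.

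DHX9, or RNA helicase A, is a nuclear enzyme that unwinds double-stranded RNA and DNA-RNA hybrids. Much of the double-stranded RNA in human transcripts comes from Alu elements, short repeats that pair with each other when they lie in opposite directions within one transcript. Chromosome 19 is known for its dense packing of genes and of Alu elements, and its short arm carries compact genes on both strands. Sites are given here by hg19 position and not by gene, because the annotation at hand is of another assembly. For the same reason, no sequence of a peak is printed, and whether a peak lies in an exon, an intron or an Alu element was not determined.

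The peaks covered about as many windows as they left empty. The 2 stretches together span 15.95 Mb without the part left out, and they touch 160 windows of 100 kb. DHX9-Rb peaks lay in 82 of these windows and DHX9-mAb peaks in 47, both antibodies marked 46, and 77 windows held no peak under the rule. The 77 include the window from 3500001 to 3600000, whose peaks all lay in the part left out. Per Mb there were 48.6 peaks of DHX9-Rb and 13.5 of DHX9-mAb. A window with DHX9-Rb peaks held a median of 6 of them (interquartile range 3 to 13), and the fullest held 54. Windows with at least 10 DHX9-Rb peaks numbered 27 and contained 555 of the 775, or 71.6%. On average a window with a peak held 9.45 DHX9-Rb peaks, against 11.6 on the rest of chromosome 19, 9.27 on chromosome 22, 8.35 on chromosome 17 and 6.67 on the short arm of chromosome 16 (midpoints below 36 Mb). Over the whole list the value was 6.3. These averages leave out windows without a DHX9-Rb peak. Counted per Mb from first to last peak, DHX9-Rb had 40.1 peaks on the short arm and 38.3 on the rest of chromosome 19. The spans of these 2 parts each take in positions of the other, which lowers both values. By the same count there were 34.9 on chromosome 22, 27.9 on chromosome 17, 16.3 on the short arm of chromosome 16 and 7.48 over the whole list.

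Both stretches of the arm looked alike in these measures. The stretch from 0 to 9.0 Mb had 453 peaks of DHX9-Rb (50.6 per Mb) and 123 of DHX9-mAb (13.7 per Mb). The stretch from 12.8 to 19.8 Mb had 322 and 92, or 46.0 and 13.1 per Mb. There were 3.68 DHX9-Rb peaks for each DHX9-mAb peak in the first and 3.5 in the second. Peaks just inside and outside the edges of the rule had ordinary widths. Nearest the edge at 12.8 Mb, a DHX9-Rb peak of 136 nt (12795529 to 12795664) lay outside and one of 220 nt (12808896 to 12809115) inside. The stretch left out held 24 peaks of DHX9-Rb and 3 of DHX9-mAb, and 266 and 83 lay between the 2 stretches.

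Long parts of the arm had no peak of either antibody. The longest ran from 15526498 to 16325808, over 799 kb, followed by 14682259 to 15421716 (739 kb) and 6385795 to 7071522 (686 kb). In all, 46 stretches of at least 100 kb without a peak made up 11.8 Mb. The first 2 of these enclose a small island from 15421717 to 15526497 that held 2 of the 10 largest groups of peaks described below.

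**Figure D1:**
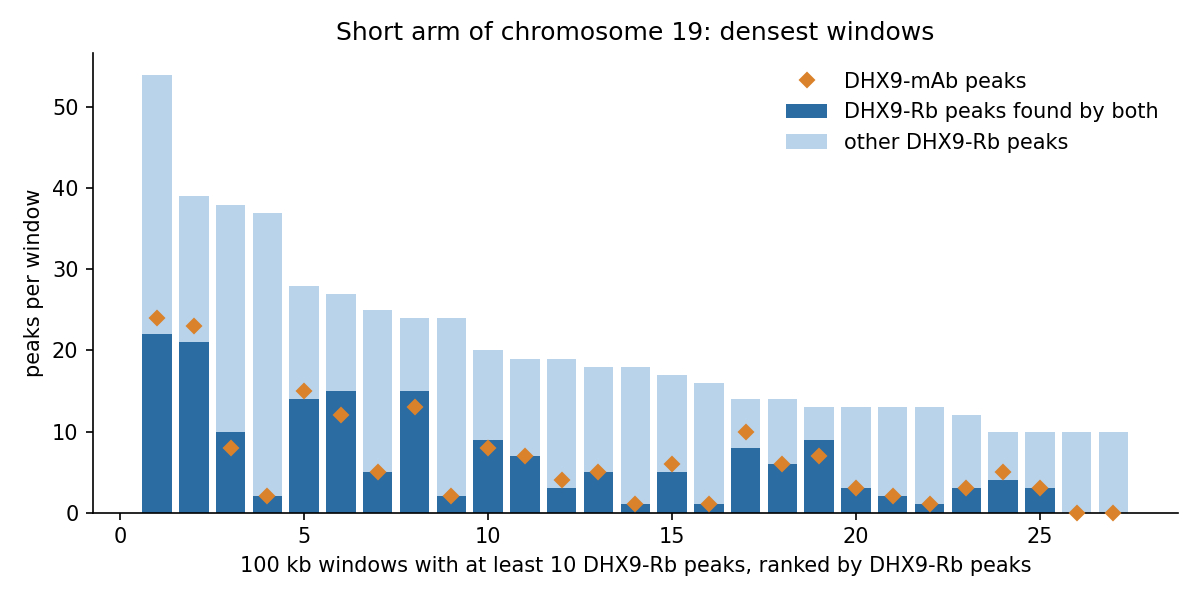
Peaks per 100 kb window (vertical axis) for the 27 windows that held 10 or more DHX9-Rb peaks, ranked by that number (horizontal axis). Bars are DHX9-Rb peaks, with the dark part found by both antibodies, and diamonds are DHX9-mAb peaks. The fullest window had 54 and 24 peaks, whereas the fourth had 37 and 2.

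Peaks close to each other lay on one strand. Among DHX9-Rb peaks with less than 1000 nt between them, all 518 neighbouring pairs were on the same strand. At 1000 to 10000 nt the number was 131 of 134 pairs, and at 100000 nt or more it was 26 of 42. DHX9-mAb neighbours showed the same order, with 123 of 123 pairs, 33 of 33 and 20 of 34. All DHX9-Rb peaks of a window were on 1 strand in 65 of the 82 windows, and all DHX9-mAb peaks in 46 of the 47. No short-arm peak faced a peak of the other strand within its own list (0 of 775 and 0 of 215). The other 17 windows held DHX9-Rb peaks of both strands and from 0 to 5 DHX9-mAb peaks each. Of the windows with 10 or more DHX9-Rb peaks, the 7 with both strands had a median of 2 DHX9-mAb peaks (0 to 5) and the 20 with 1 strand a median of 6.5 (0 to 24), so the ranges overlapped. Examples, chosen after their values were seen, are those with the most DHX9-Rb peaks on the lesser strand and those with the most DHX9-mAb peaks. The window from 15400001 to 15500000 held 25 plus-strand and 12 minus-strand DHX9-Rb peaks, and its 2 DHX9-mAb peaks were on the minus strand. That from 1900001 to 2000000 held 18 and 6 DHX9-Rb peaks, and its 2 DHX9-mAb peaks were on the plus strand. The window from 13000001 to 13100000 held 10 and 3, with 2 DHX9-mAb peaks on the plus strand. The window from 5600001 to 5700000 held 17 and 1, with 5 DHX9-mAb peaks, and that from 16700001 to 16800000 held 2 and 17, with 1 DHX9-mAb peak on the plus and 3 on the minus strand.

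The DHX9-mAb peaks leaned to the minus strand. DHX9-Rb peaks were split evenly, with 389 on the plus and 386 on the minus strand. DHX9-mAb had 90 on the plus and 125 on the minus strand, so 58.1% were on the minus strand (95% Wilson interval 51.5 to 64.5). This interval, like the others here, treats peaks as independent and covers counting error only, whereas peaks of one transcript come together. In the whole DHX9-mAb list 47.8% of peaks were on the minus strand. This share was 63.4% on the short arm of chromosome 16, 55.4% on chromosome 17, 49.1% on chromosome 22 and 32.5% on the rest of chromosome 19. A lean to one strand was thus not particular to this arm. Without the window from 2000001 to 2100000, which held 23 minus-strand DHX9-mAb peaks, the short-arm share was 53.1% (46.1 to 60.1). The interval then included an even split. That window was chosen for its minus-strand DHX9-mAb peaks, so the share had to fall. The window from 4400001 to 4500000, with 24 plus-strand DHX9-mAb peaks, was kept. Nothing is therefore read from the lower share. DHX9-mAb had also found 31.3% of the DHX9-Rb peaks of the minus strand and 23.1% of those of the plus strand. In the whole list these shares were 28.3% and 28.8%. Without the window from 2000001 the minus-strand share was 28.8% (24.3 to 33.8). In that window 21 of 39 DHX9-Rb peaks were found by both, so leaving it out lowers the share. The plus-strand window from 4400001, with 22 of 54 found by both, was kept, and nothing is read from the change. No test was made of the difference between the strands.

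Most DHX9-Rb peaks belonged to runs, defined as neighbouring peaks of 1 strand with less than 10 kb between each and the next. There were 126 runs, 64 on the plus and 62 on the minus strand. Of these, 31 were single peaks, 42 had 2 to 4 peaks, 30 had 5 to 9 and 23 had 10 or more. The 23 large runs held 439 DHX9-Rb peaks (56.6%, against 50.1% of the whole list in such runs) and 158 of the 215 DHX9-mAb peaks (73.5%, against 56.7% of the whole list). They were 5129 to 56976 nt long, with a median of 13085 nt. Gaps between same-strand peaks under 10 kb apart had a median of 308 nt for DHX9-Rb (interquartile range 112 to 787) and 426.5 nt for DHX9-mAb (178.75 to 870.75).

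The largest runs differed in how tightly the peaks were packed. On the plus strand, 41 peaks of DHX9-Rb and 6 of DHX9-mAb lay from 3385878 to 3442853, where DHX9-Rb peaks filled 15.6% of the length. Here and below, the filled share is the summed width of the DHX9-Rb peaks over the length of the run. Bases under overlapping DHX9-Rb peaks count more than once, so the share can be somewhat too high. Over the arm the summed width was 188067 nt, against 187318 nt covered. A minus-strand run from 1991519 to 2014698 held 36 and 19 peaks, and DHX9-Rb peaks filled 49.5% of it. Another plus-strand run, from 4911434 to 4960230, held 34 and 8 and was filled to 15.3%. These 3 ranked 35, 52 and 61 among all runs of the genome by DHX9-Rb peaks. The 2 loose runs, named first and last, split when the allowed gap was 5 kb, leaving 21 and 16 peaks in their largest pieces, whereas the second kept all 36.

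Of the other 7 among the 10 largest runs, 6 were marked by both antibodies. Within 10826 nt, from 15496297 to 15507122, lay 25 peaks of DHX9-Rb and 9 of DHX9-mAb, or 2.31 DHX9-Rb peaks per kb. The run from 14237942 to 14247263 had 19 and 8 peaks, and DHX9-Rb peaks filled 61.7% of its 9322 nt, the highest share among the 10 largest. From 12808896 to 12831530 there were 23 and 13, each of the 13 had a DHX9-Rb partner, and DHX9-Rb peaks filled 30.6%. From 1583612 to 1604992 there were 24 and 9, filling 28.5%, in separate groups with a gap of 8035 nt; with the allowed gap at 5 kb the larger piece had 13 peaks. On the plus strand, 22 and 6 peaks lay from 4405790 to 4422157 (29.6% filled), and 17 and 10 from 4433737 to 4451616 (28.8%). The last 2 joined into 1 run of 39 peaks when gaps up to 20 kb were allowed. The run from 4433737 shared its rank with 2 others of 17 DHX9-Rb peaks and was listed for its larger number of DHX9-mAb peaks. The others lay from 8278921 to 8300856 on the plus strand, with 1 DHX9-mAb peak, and from 16745777 to 16756377 on the minus strand, with 3.

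**Figure D2:**
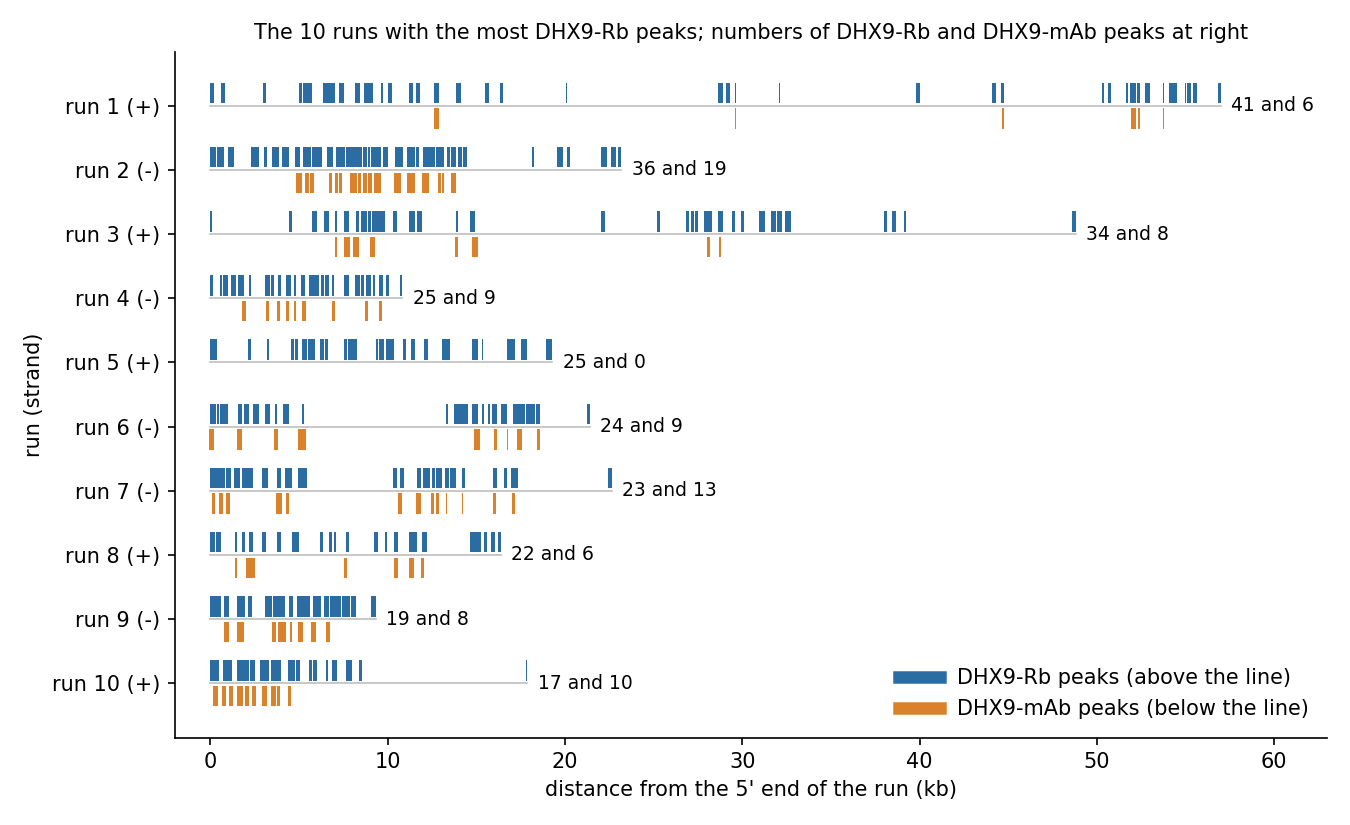
The 10 runs with the most DHX9-Rb peaks, drawn by distance in kb from the 5′ end of each run (horizontal axis), with DHX9-Rb peaks above and DHX9-mAb peaks below each line and both numbers at the right. Some stretches of close DHX9-Rb peaks have DHX9-mAb peaks under them, and others have few or none. The fifth run has 25 DHX9-Rb peaks and 0 DHX9-mAb peaks.

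DHX9-mAb peaks took only part of some runs and spanned most of others. In the run from 1583612 to 1604992, for example, they reached from 1586413 to 1605080. In the run from 1991519, all 19 DHX9-mAb peaks lay between 2000861 and 2009862, and 10 DHX9-Rb peaks in a row, from 2005058 to 2009947, were found by both antibodies. In the run from 4433737, 9 DHX9-Rb peaks in a row (4433737 to 4438524) were found by both, and the other 8 were found by DHX9-Rb alone. In the run from 4911434, the longest such rows had 3 peaks. One lay from 4918441 to 4919820, and another began 27.81 kb from the 5′ end of the run. When each of the 23 large runs was cut into 3 parts by peak order, DHX9-mAb also found 33.3% of DHX9-Rb peaks in the 5′ part (52 of 156), 47.9% in the middle (70 of 146) and 27.0% in the 3′ part (37 of 137). The Wilson intervals were 26.4 to 41.1, 40.0 to 56.0 and 20.3 to 35.0. The middle had the highest share in 12 of the 23 runs (52.2%), against 186 of 538 over the genome (34.6%). Over these 538 large runs the shares of peaks were 35.9, 38.8 and 28.7%. The cut into parts was chosen with the lists in view and was not tested.

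One large run had no DHX9-mAb peak. It lay on the plus strand from 15443966 to 15463230 and held 25 DHX9-Rb peaks of 102 to 473 nt (median 208 nt), which filled 32.5% of its 19265 nt. No DHX9-mAb peak lay there on either strand. The minus-strand run with 25 DHX9-Rb and 9 DHX9-mAb peaks began 33066 nt farther on, with no peak between. Of the 174 runs of the genome with at least 20 DHX9-Rb peaks, this was the only one without a DHX9-mAb peak, and of the 538 with at least 10 there were 17. Runs were compared by Fisher's exact test (two-sided), and p-values were adjusted by the Benjamini-Hochberg method over the 731 runs of the genome that held at least 10 peaks of both antibodies together. The exact test gave p = 0.00163 and an adjusted p of 0.132 for this run. The difference therefore did not pass 0.05. The same test called 5 runs of the genome (0.684%) and 0 of the 27 on the short arm, of which this 1 had an unadjusted p under 0.05, against 62 of the 731 over the genome (8.48%). Runs were taken as a unit of this test only once the lists were known. They were built from DHX9-Rb peaks alone, so a group of DHX9-mAb peaks without DHX9-Rb peaks could not be a unit. On the short arm, 4 DHX9-mAb peaks lay in no run. The choice of units thus leans to DHX9-Rb, and no difference between the antibodies is read from these p-values or called shares.

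The 3 large runs with the fewest DHX9-mAb peaks for their size were on the plus strand, and the next, from 16745777 to 16756377, was on the minus strand. Among the 23 large runs, the 11 on the plus strand had a median ratio of DHX9-mAb to DHX9-Rb peaks of 0.273 (range 0 to 0.615). The 12 on the minus strand had a median of 0.469 (0.176 to 0.714), so the ranges overlapped. The richest in DHX9-mAb was a minus-strand run from 2124496 to 2144664, with 14 DHX9-Rb and 10 DHX9-mAb peaks. Next came plus-strand runs from 13870122 to 13885076 (13 and 8) and from 4433737 to 4451616 (17 and 10). Over all large runs of the genome the medians were 0.3 on the plus and 0.308 on the minus strand. No test of the strands was made.

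**Figure D3:**
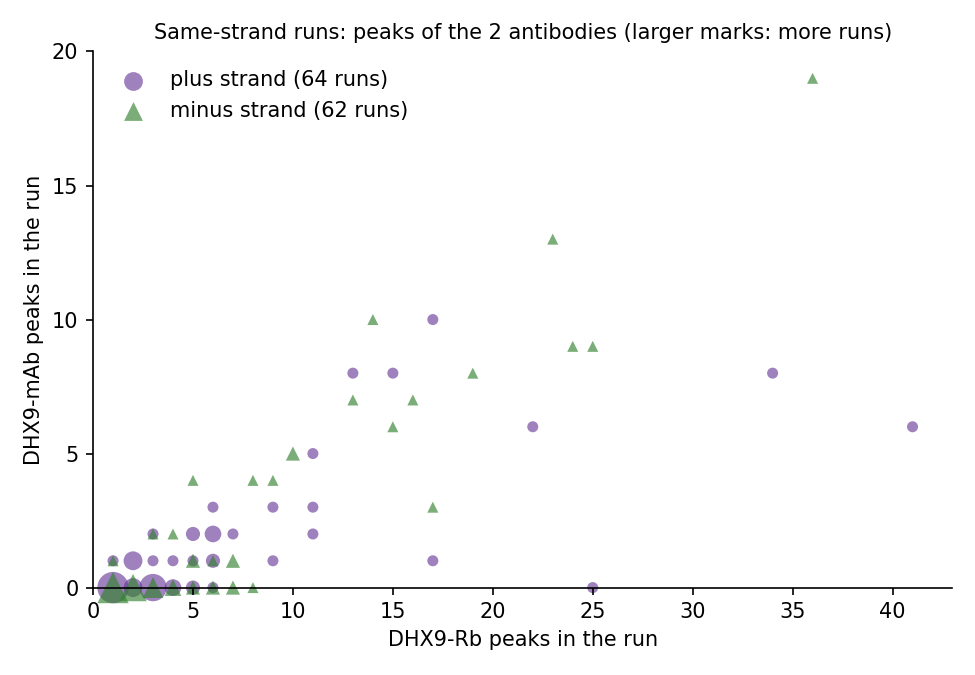
DHX9-mAb peaks (vertical axis) against DHX9-Rb peaks (horizontal axis) in each of the 126 same-strand runs, with circles for the plus and triangles for the minus strand and larger marks where several runs coincide. The run with 36 DHX9-Rb peaks has 19 DHX9-mAb peaks, the run with 41 has 6, and the run with 25 at the bottom has 0.

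The 10 windows with the most sites found by both antibodies held 130 of the 211 such DHX9-Rb peaks (61.6%) and 35.6% of all short-arm DHX9-Rb peaks. The windows were chosen by the first of these numbers, so nothing is read from the difference. The first, from 4400001 to 4500000, had 54 peaks of DHX9-Rb and 24 of DHX9-mAb, all plus-strand, with 22 of the 54 found by both. It ranked 18 among all windows of the genome by DHX9-Rb peaks. Next came the window from 2000001 to 2100000, where 21 of 39 minus-strand DHX9-Rb peaks were found by both and all 23 DHX9-mAb peaks had a partner. In the windows starting at 14500001 and 13800001, 15 of 27 (minus strand) and 15 of 24 (plus strand) were found by both.

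The other windows of this group varied in how many sites were matched. From 12800001 to 12900000, 14 of 28 minus-strand DHX9-Rb peaks were found by both. From 4900001 to 5000000, 10 of 38 plus-strand peaks were. The highest share was in the window from 4100001 to 4200000, with 9 of 13 minus-strand peaks, or 69.2%. The windows starting at 14200001, 2100001 and 15500001 had 9 of 20, 8 of 14 and 7 of 19, all on the minus strand. In 7 of the 10 windows the peaks were thus on the minus strand.

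No short-arm window was called different between the antibodies. Peak numbers were compared by two-sided Fisher's exact tests over all 818 windows of the genome with at least 10 peaks in both lists together, and 6 passed an adjusted p of 0.05 (0.733%). Of the 32 tested on the short arm, 0 passed, and 2 had an unadjusted p under 0.05, against 55 of the 818 over the genome (6.72%). The smallest adjusted p by this exact test was 0.261, for the window from 15400001 to 15500000, where 37 DHX9-Rb peaks met 2 DHX9-mAb peaks (odds ratio 0.171). Odds ratios above 1 mean a larger part of the DHX9-mAb list. The other, from 2000001 to 2100000, had an odds ratio of 1.87 (adjusted p = 0.618 by the exact test). Of the 32 odds ratios, 15 were above 1 and 17 below, with a median of 0.914 against 0.974 over the genome. With runs as the unit, 18 of 27 were above 1 and 9 below, with a median of 1.33 against 1.05 over the genome. Runs were built from DHX9-Rb peaks alone and windows were not, so the 2 units are not comparable. No direction is read from either. A p of this kind describes the 2 lists, because peaks of one transcript are not independent.

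Some windows carried DHX9-Rb peaks alone. Of the 82 windows with DHX9-Rb peaks, 46 also held a DHX9-mAb peak. Over the whole lists, 3430 windows held DHX9-Rb peaks and 1936 held DHX9-mAb peaks. How many windows of the genome held both was not counted, so the 46 of 82 are not read as particular to this arm. The short-arm windows with the most DHX9-Rb peaks and none of DHX9-mAb lay from 4000001 to 4100000 (10 peaks, 3 plus and 7 minus) and from 19200001 to 19300000 (10, all minus). By Fisher's exact test the adjusted p was 0.834 for both. Then followed the windows from 8300001 (9 peaks), 7200001 (7) and 14100001 (7), which had too few peaks to be tested. One window held a DHX9-mAb peak and no DHX9-Rb peak.

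Site by site, DHX9-mAb peaks were nearly all matched. A peak counted as found by both if 1 nt or more of it lay under a peak that the other antibody gave on that strand. This held for 204 of the 215 DHX9-mAb peaks, or 94.9% (Wilson 91.1 to 97.1), against 88.0% of the whole list. It held for 211 of the 775 DHX9-Rb peaks, or 27.2% (24.2 to 30.5), against 28.6% of the whole list, so this share was near that of the genome. On the rest of chromosome 19 the shares were 92.0% and 34.9%, on chromosome 22 90.7% and 33.0%, on chromosome 17 87.3% and 24.8%, and on the short arm of chromosome 16 92.5% and 30.8%. These are values side by side, with no test between chromosomes. Without the 2 windows with the most shared peaks, the short-arm shares were 94.6% and 24.6%, and without the 10 such windows 90.9% and 16.2% (81 of 499). These windows were chosen by their number of shared peaks, so nothing is read from the lower shares without them.

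**Figure D4:**
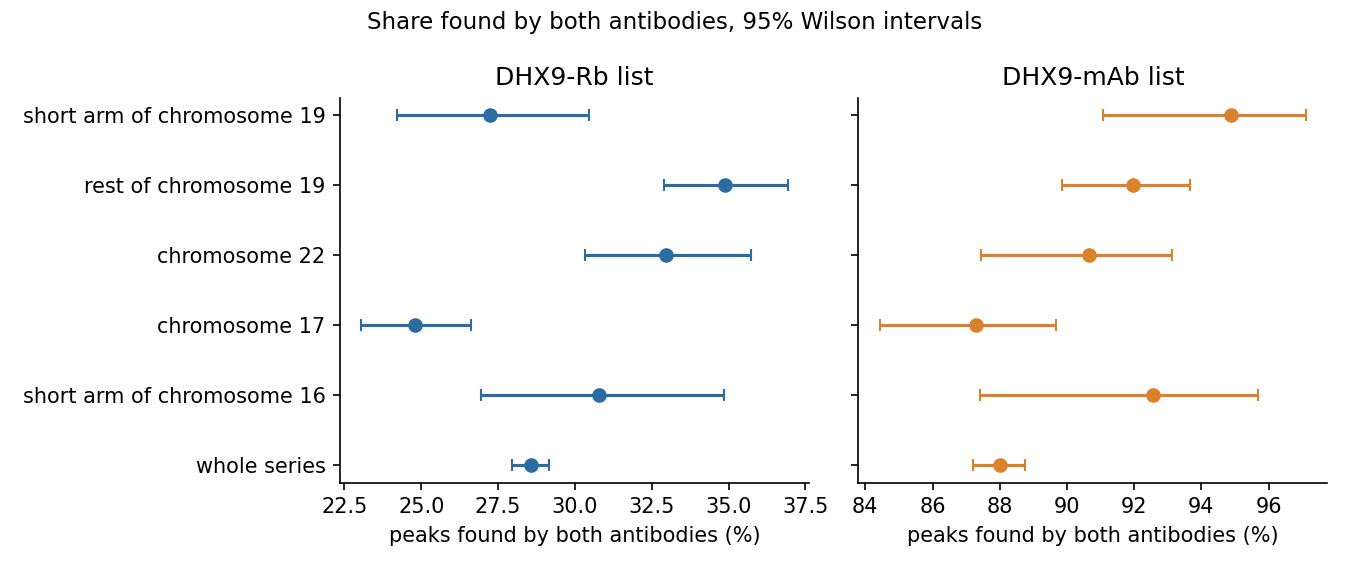
Share of peaks found by both antibodies (horizontal axes, %) for each part of the genome (vertical axis), in the DHX9-Rb list (left) and the DHX9-mAb list (right), with 95% Wilson intervals. The axes do not start at 0. The short arm of chromosome 19 stands at 27.2% and 94.9%, and the whole lists at 28.6% and 88.0%.

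Windows that held more DHX9-Rb peaks had a larger share of them matched, which is given here with no test. In windows with 1 to 4 DHX9-Rb peaks, 10 of 78 were found by both (12.8%, Wilson 7.12 to 22.02). With 5 to 9 peaks it was 25 of 142 (17.6%), with 10 to 19 peaks 61 of 239 (25.5%), and in the 10 windows with 20 or more 115 of 316 (36.4%, 31.3 to 41.8). In the same classes over the genome the shares were 20.4, 23.1, 28.2 and 35.1%. In runs of at least 10 peaks 36.2% were found by both (159 of 439, Wilson 31.9 to 40.8), and outside them 15.5% (52 of 336, 12 to 19.7). In the whole list these shares were 34.6 and 22.5%, so the share inside runs was near that of the genome. Of the 31 short-arm DHX9-Rb peaks alone in their run, 2 were found by both (6.45%, Wilson 1.79 to 20.7). The share of such lone peaks over the genome was not counted, so nothing is read from this small number. The median width moved with density as well, from 172.5 nt in the sparsest windows to 233.5 nt in the densest, and the part of width in the matching was not tested.

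Matched peaks overlapped widely but seldom had a border in common. There were 232 overlapping pairs, 151 of them 1 to 1, with a median overlap of 157.5 nt. The midpoints of a pair were a median of 52 nt apart (interquartile range 19.5 to 131.875). They were within 25 nt in 72 pairs (31.0%) and over 100 nt apart in 75 (32.3%). No pair had the same first and last base, and 8 shared one of the 2. The signed distance along the strand had a median of -5 nt, with negative values when the DHX9-mAb midpoint was nearer the 5′ end. In 1 to 1 pairs the DHX9-Rb peak was wider in 105, the DHX9-mAb peak in 43, and 3 were equal, with medians of 255 and 194 nt. A DHX9-mAb peak lay wholly inside its DHX9-Rb partner in 69 pairs, and the reverse held in 31. By length, 78.4% of the 49112 nt under DHX9-mAb peaks also lay under DHX9-Rb peaks, and 20.6% of the 187318 nt under DHX9-Rb peaks lay under DHX9-mAb peaks.

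The median width on the short arm was 214 nt for DHX9-Rb, with quartiles at 162 and 292 nt. For DHX9-mAb it was 209 nt, with quartiles at 161 and 274 nt. The whole lists had medians of 201 and 191 nt. A width of at least 300 nt was reached by 23.4% of the short-arm peaks with DHX9-Rb and by 19.1% with DHX9-mAb, against 19.4% and 15.4% of the whole lists. These shares were higher on the rest of chromosome 19 (26.6% and 20.6%) and on chromosome 22 (24.9% and 19.4%). They were lower on chromosome 17 (18.2% and 10.8%) and on the short arm of chromosome 16 (21.3% and 17.4%). DHX9-Rb peaks found by both had a median of 263 nt and the other 564 peaks 201.5 nt. The share found by both was 20.8% below 150 nt (30 of 144), 16.7% from 150 to 200 nt, 27.8% from 200 to 300 nt (70 of 252), 36.4% from 300 to 400 nt (36 of 99, Wilson 27.6 to 46.2) and 51.2% at 400 nt or more (42 of 82, 40.6 to 61.7). The lowest share was thus in the second class and the highest in the widest. In the same classes of the whole list the shares were 20.6, 20.2, 28.4, 46.5 and 54.4%. DHX9-mAb peaks were matched at 93.3 to 95.8% in the 4 classes below 400 nt and in 17 of 17 above. A wider peak has more room to meet another, so width and matching are not separate measures.

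Of the 3 widest peaks in each list, 5 overlapped 2 peaks of the other antibody and 1 overlapped a single one. The widest DHX9-Rb peak, on the plus strand from 13883520 to 13884254, measured 735 nt and overlapped 2 DHX9-mAb peaks, 13883715 to 13883999 and 13884155 to 13884343. The next, from 4435210 to 4435909 (700 nt, plus) and from 14243048 to 14243719 (672 nt, minus), also met 2 DHX9-mAb peaks each. In the DHX9-mAb list the widest measured 493 nt, on the minus strand from 2134218 to 2134710 and from 2136202 to 2136694. The former met 2 DHX9-Rb peaks and the latter 1, from 2136189 to 2136605. The next, 483 nt on the plus strand from 13871411 to 13871893, covered 2 DHX9-Rb peaks whose outer borders were the same as its own (13871411 to 13871612 and 13871701 to 13871893). Over the arm, 20 DHX9-Rb peaks met more than 1 DHX9-mAb peak, and 27 DHX9-mAb peaks met more than 1 DHX9-Rb peak.

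**Figure D5:**
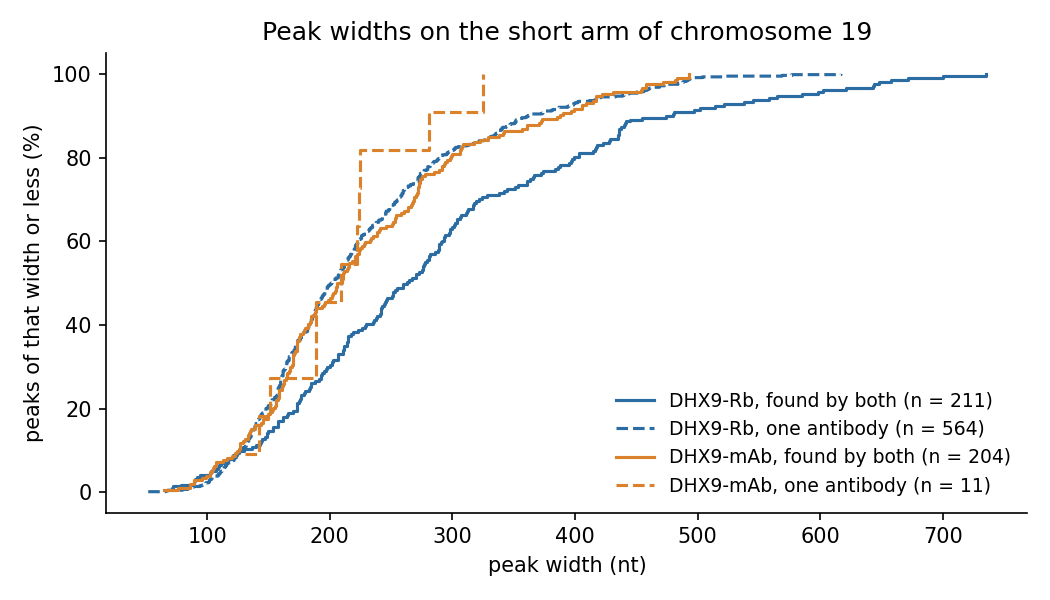
Cumulative share of peaks (vertical axis, %) by width (horizontal axis, nt) on the short arm, for each list and for peaks found by both antibodies (solid) or by one (dashed). The solid DHX9-Rb curve lies to the right, with a median of 263 nt against 201.5 nt for the dashed one, and the dashed DHX9-mAb curve rests on 11 peaks.

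The 11 DHX9-mAb peaks without a partner mostly stood beside DHX9-Rb peaks. In 8 of them the nearest DHX9-Rb peak of the strand was less than 1000 nt away, and the median was 548 nt. The closest case, from 4480229 to 4480370 on the plus strand, lay 21 nt from a DHX9-Rb peak in the window with 54 of them. Only 1 was remote: the minus-strand peak from 18425473 to 18425694, 222 nt wide, was 219554 nt from the nearest DHX9-Rb peak of its strand and alone in its window. No window held 3 or more unmatched DHX9-mAb peaks, and the most in 1 window was 2. They were 131 to 325 nt wide, with 6 on the plus and 5 on the minus strand.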

How the data were processed

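Cells were cross-linked by ultraviolet light per the labels' protocols; RNA was trimmed with RNase I, random adapter bases marked PCR duplicates, and control material was mixed with DHX9 material before cDNA synthesis, so the libraries are not fully separate. Per the submitters' processing notes, the authors' tools include Bowtie2 2.2.6, with hg19 as the assembly. PEAKachu called the peaks, per the file's second column. Its version, control, threshold and the treatment of replicates and of reads from repeats, which could change the lists, are not given in the labels or files used here. The deposited values are first base, last base (counted from 1) and strand; 0 score cells held a number, so read depth is unknown. Members, lists and rules were chosen with earlier results of these data known. The named regions are the 10 windows with the most shared peaks, the 10 largest runs, the 5 fullest windows without DHX9-mAb, the 3 longest empty stretches and the 3 widest peaks per list. Planned gene names and gene lists would need an hg19 annotation and were not used here. Windows count from position 1 and a peak is placed by its midpoint. The test was fitted on the whole genome; the window with the stretch from 3530 to 3580 kb is not among the short-arm tests. Scripts were tested on simulated data and used Python 3.11.15, SciPy 1.17.1, pandas 2.3.3, statsmodels 0.14.6 and matplotlib 3.10.9. Alternatives covered overlap, merging, widths, window size and start, minimum peaks and run gap.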

Additional observations from a re-analysis of the deposited data

How the results depend on the processing

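Of 33 alternatives to the summary values, 24 left the value within its counting interval or, for a count, within 1.5 times of it. Requiring an overlap of at least 50 nt gave 25.4% of DHX9-Rb and 93.0% of DHX9-mAb peaks, each within its counting interval. Rules that asked for 50% of a peak moved both shares found by both antibodies. Requiring 50% of the narrower peak gave 24.0% of DHX9-Rb and 89.8% of DHX9-mAb peaks, and 50% of each peak gave 17.03% and 61.4%. With peaks of at least 150 nt in both lists the DHX9-mAb share was 87.6%. Merging peaks within 50 nt gave 42.9 DHX9-Rb peaks per Mb and a median width of 226 nt. The share of DHX9-Rb peaks in runs of at least 10 was 51.1% with gaps under 5 kb and 62.7% with gaps under 20 kb. Under every window alternative, and with runs as the unit, Fisher's exact test called 0 short-arm regions after adjustment. The smallest adjusted p-values by this test ran from 0.119 to 0.69. Runs were built from DHX9-Rb peaks alone, so nothing is read from the result with runs. No paired analysis was possible because each list stands for both replicates of its antibody together. Replicates could not be left out for the same reason.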
